A study of Homo sapiens with 6 samples.

Results

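NRF2 and thiol stress genes are a set of 10 genes that report on oxidants and on reactive chemicals (electrophiles) inside a cell. The set was made by gene symbol and holds the transcription factor NFE2L2 (NRF2), its sensor KEAP1, and the stress genes HMOX1, GCLM, GCLC, TXNRD1, SRXN1, SLC7A11, OSGIN1 and TXN. All 10 were measured, out of 18417 gene symbols tested, and each had 1 probe set with that single symbol, so no choice between probe sets was needed. The cells were neural stem cells (NSCs), dividing precursors of neurons and glia, at passage 14. They were made from SA-01, a line of human embryonic stem cells. One treatment was the compound X5050 at 100 µM, which the series title calls an inhibitor of the repressor REST. The other was the solvent DMSO at 0.1%. Both were given 5 h after plating on polyornithine and laminin and lasted 24 h, and each treatment has 3 Affymetrix arrays from 3 independent cultures of this 1 line. Whether the X5050 wells held the same amount of solvent is not given in the sources used here. A single dose and a single time were analysed here, so an earlier or brief response was not measured.

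In unstressed cells KEAP1 hands NRF2 to a CUL3 ubiquitin ligase, and NRF2 protein is destroyed as fast as it is made. Oxidants and electrophiles react with cysteines of KEAP1, NRF2 then accumulates, enters the nucleus with a small MAF protein, and binds antioxidant response elements in the promoters and enhancers of its targets. The targets make glutathione, run the thioredoxin system, supply NADPH and clear quinones and heme. NRF2 itself is controlled mainly as a protein, so the mRNA levels of its targets are the usual transcript readout of the pathway. In the nervous system this response is known mostly from astrocytes, while neurons carry out less of it.

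The comparison asks whether X5050 for 24 h went with an oxidative or electrophile response in these cells. None of the 10 genes passed the test, which compared each X5050 array with the DMSO array of the same culture (limma with the culture as a block, Benjamini-Hochberg adjusted p under 0.05). GCLC, the catalytic subunit of the enzyme that starts glutathione synthesis, had the largest difference and was 1.41-fold higher with X5050, with an adjusted p of 0.0709 in the paired limma fit. HMOX1, the most widely used marker of oxidative stress, differed by 0.049 on the log2 scale, with a 95% interval from -0.16 to 0.26. In fold terms that interval runs from 1.12-fold lower to 1.20-fold higher. SLC7A11 and GCLM differed between the cultures, with adjusted p of 0.0345 and 0.0154 for the culture term in limma, which passed for 2.93% of all tested probe sets. Of all 19460 probe sets tested, 0.498% passed in that fit in either direction. With p left unadjusted, 1 of the 10 (GCLC) was higher and 0 were lower at 0.05 in the same limma fit, beside 7.06% of all tested probe sets that were higher and 7.48% that were lower.

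The 6 arrays had median log2 signals between 5.68 and 5.75, and any 2 arrays correlated at a Pearson r between 0.984 and 0.993 over all probe sets. All 13 neural stem cell markers searched (among them SOX2, PAX6 and NES) lay above the median signal of the tested probe sets. All 12 mesenchymal markers also lay above that median. Deviations from the treatment means were shared by arrays of the same culture number, which is why the arrays were paired. All changes below are log2 signal with X5050 minus log2 signal with DMSO, values are listed in the order of cultures 1, 2 and 3. With 3 arrays per treatment, array number sets the precision. The SEs and intervals of changes come from the paired limma fit after its eBayes step. That step draws each variance towards a value shared by all tested probe sets. An SE can therefore be smaller or larger than a gene's own differences over the 3 cultures would give. The median change of the 10 genes was -0.060, and that of all tested probe sets was 0.0092. The middle 90% of all tested probe sets lay between -0.29 and 0.27, and GCLC and SLC7A11 lay outside these bounds. The arrays measure RNA from whole cultures, so fewer cells of a type and less RNA per cell cannot be told apart.

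**Figure D1:**
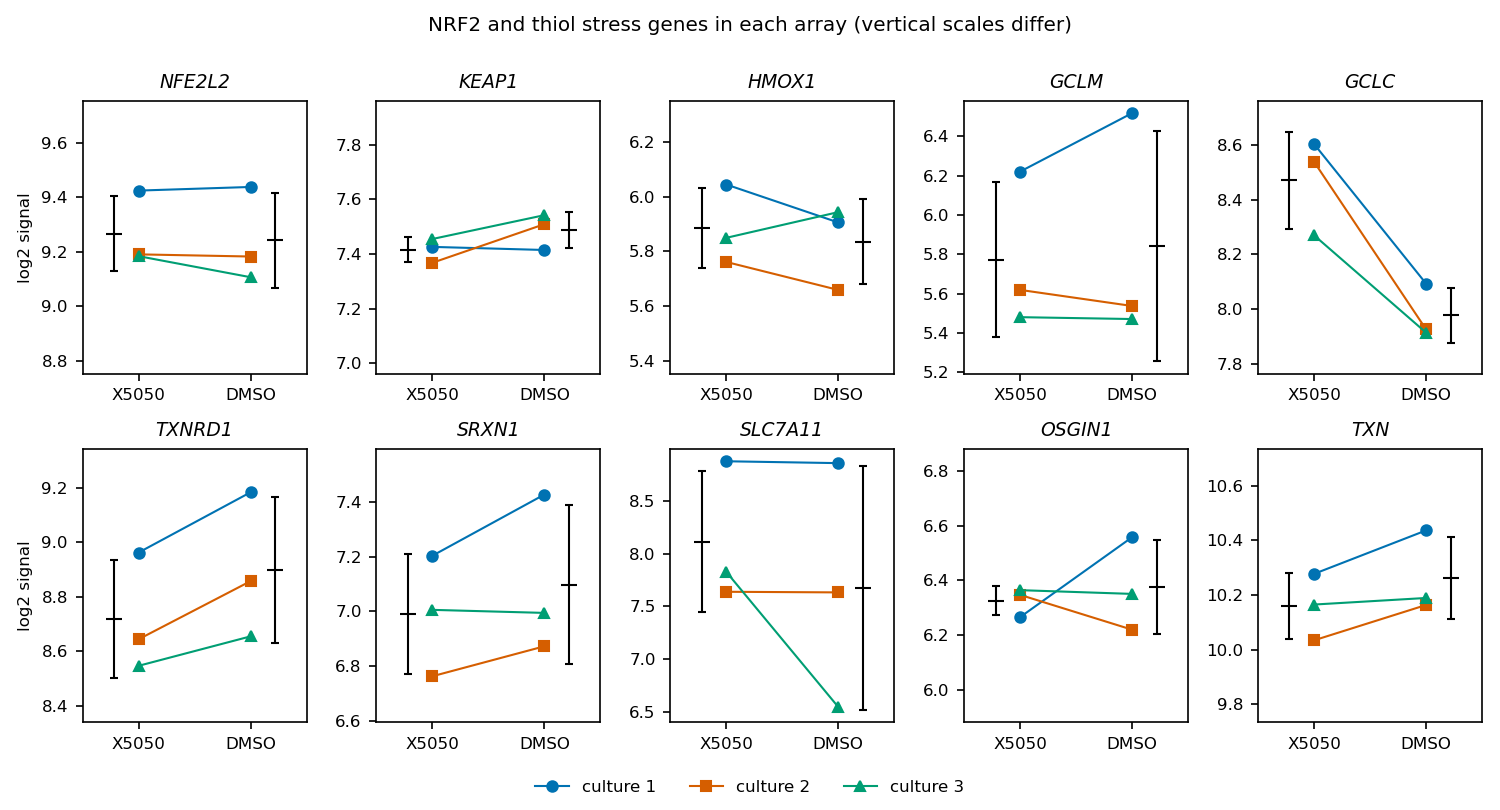
Log2 signal of each of the 10 genes in the 6 arrays, with X5050 on the left and DMSO on the right of every panel. A line joins the 2 arrays of a culture, and the black bars give the mean and SD of the 3 arrays of a treatment. The vertical scales differ between panels, and only in the GCLC panel do the X5050 values all lie above the DMSO values.

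NFE2L2, which encodes NRF2, had signals of 9.42, 9.19 and 9.18 with X5050 and of 9.44, 9.18 and 9.11 with DMSO. The treatments overlapped fully, and culture 1 was the highest in both. The change was 0.024 (95% interval -0.18 to 0.22, SE 0.087, adjusted p = 0.942 in the paired limma fit). KEAP1, the cysteine-rich sensor that holds NRF2, stood at 7.43, 7.37 and 7.46 with X5050 and at 7.41, 7.51 and 7.54 with DMSO. It had the smallest spread of the 10 genes among DMSO cultures (SD 0.066, n = 3), and its change was -0.072 (95% interval -0.28 to 0.13, adjusted p = 0.793 in the paired limma fit). In fold terms the interval of KEAP1 runs from 1.21-fold lower to 1.09-fold higher.

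KEAP1 is itself known as a target of NRF2 through its promoter. The core of the antioxidant response element, TGACNNNGC, was searched on both strands of RefSeq promoters (GRCh38.p14, 250 bases before to 50 after a start). One of the KEAP1 windows holds 2 matches and is shown here as the stretch from 110 bases before to 10 bases after the start, on the gene's strand, with each match in capitals (chr19:10502762-10502881, minus strand).
KEAP1: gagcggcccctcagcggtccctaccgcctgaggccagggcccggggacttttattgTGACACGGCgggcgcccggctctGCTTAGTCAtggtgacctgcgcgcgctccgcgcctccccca
The first match begins 54 bases before the start and the other, on the opposite strand, 31 bases before it. A match is only a run of letters and is no evidence of binding in these cells.

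Of 14 partners and regulators of NRF2 listed, 13 were measured and 0 rose or fell in the paired limma fit, with 8 above and 5 below 0 and a median of 0.028. BACH1, the heme-sensing repressor that competes with NRF2 for its elements and holds down HMOX1, had the smallest p. Its signals were 7.78, 7.82 and 7.94 with X5050 and 7.36, 7.55 and 7.45 with DMSO. The treatments did not overlap, and X5050 was higher in every culture by 0.27 to 0.49, although the adjusted p was 0.108 in the paired limma fit (change 0.39, SE 0.092). MAFG, a small MAF partner, stood at -0.23 (SE 0.10) on the brightest of its 3 probe sets and at -0.061 and 0.011 on the others. The kinase GSK3B, which marks NRF2 for degradation, stood at 0.16 (SE 0.087).

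HMOX1, the heme oxygenase that opens the heme ring and releases iron, had signals of 6.05, 5.76 and 5.85 with X5050 and of 5.91, 5.66 and 5.94 with DMSO. X5050 was the higher array in cultures 1 and 2 and the lower one in culture 3, by 0.14, 0.10 and -0.094. The change of 0.049 had an SE of 0.093 and an adjusted p of 0.877 in the paired limma fit. The HMOX1 signal lay close to the median of an array.

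Among 11 genes of heme and iron handling, 9 were measured, 0 rose or fell in the paired limma fit, and the median was 0.027. TFRC, the transferrin receptor that brings iron into the cell, had the largest difference. It stood at 10.19, 9.61 and 10.11 with X5050 and at 9.31, 9.13 and 8.74 with DMSO, with no overlap. That is 1.88-fold higher (change 0.91, SE 0.15), at an adjusted p of 0.0529 in the paired limma fit. The iron exporter SLC40A1, an NRF2 target, stood at 0.41 (SE 0.10, adjusted p = 0.120 in the paired limma fit), and the biliverdin reductase BLVRB, which acts after heme oxygenase, at 0.14 (SE 0.10).

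GCLC and GCLM form glutamate-cysteine ligase, the rate-limiting enzyme of glutathione synthesis, as the catalytic and the modifier subunit. GCLC had signals of 8.60, 8.54 and 8.27 with X5050 and of 8.09, 7.93 and 7.91 with DMSO. Every X5050 value was above every DMSO value, and the differences within cultures were 0.51, 0.61 and 0.36. The change of 0.49 (SE 0.093, 95% interval 0.28 to 0.71) ranked at position 181 by p among all tested probe sets. GCLC was the only one of the 10 genes whose treatments did not overlap, beside 14.9% of all tested probe sets. An exact permutation test over the 6 arrays, which left the pairing out, gave p = 0.1 (two-sided), the smallest it can reach with 3 against 3. Any gene without overlap reaches this p, so it adds nothing to the lack of overlap. Without the block the adjusted p in limma was 0.341. With a variance prior that follows the signal level and allows for outliers it was 0.0415, and under that setting alone, of those tried, did a member pass.

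GCLM did not follow its partner subunit. It stood at 6.22, 5.62 and 5.48 with X5050 and at 6.52, 5.54 and 5.47 with DMSO. Culture 1 was the highest array of each treatment, and the differences within cultures were -0.30, 0.082 and 0.0095. The change was -0.069 (SE 0.10, 95% interval -0.31 to 0.17, adjusted p = 0.839 in the paired limma fit), and it stood at 0.046 without culture 1. The 95% intervals of the 2 subunits, 0.28 to 0.71 for GCLC and -0.31 to 0.17 for GCLM, did not meet. The difference between them was not tested.

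The GCLM promoter holds 1 match to the element core, 34 bases before the start on the opposite strand, while the letters are absent from the GCLC window. Both stretches run from 110 bases before to 10 bases after the start, at chr1:93909421-93909540 for GCLM and chr6:53545092-53545211 for GCLC, on the minus strand in both cases, and are shown because these subunits of 1 enzyme had different values.
GCLM: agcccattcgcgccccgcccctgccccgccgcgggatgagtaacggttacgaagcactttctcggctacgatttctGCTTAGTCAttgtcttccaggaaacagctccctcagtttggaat
GCLC: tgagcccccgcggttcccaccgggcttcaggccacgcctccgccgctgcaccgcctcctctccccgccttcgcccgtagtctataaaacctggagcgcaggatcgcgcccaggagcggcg
The GCLC window says only that these letters are not within it, and elements farther from the start were not searched.

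SLC7A11 is the cystine transporter (xCT) that supplies cysteine for glutathione. Its signals were 8.87, 7.64 and 7.83 with X5050 and 8.86, 7.63 and 6.55 with DMSO. In cultures 1 and 2 the treatments were nearly equal (0.018 and 0.0058), and in culture 3 X5050 was higher by 1.28. The DMSO array of culture 3 was the lowest of the 6. The change over all cultures was 0.43 (SE 0.22, 95% interval -0.082 to 0.95, adjusted p = 0.438 in the paired limma fit), and without culture 3 it was 0.012. The value over all cultures therefore rests on 1 culture. The SE and interval of SLC7A11 were drawn towards the shared variance, so they do not show the full spread of its differences within cultures.

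SLC7A11 is also a target of ATF4, the transcription factor of amino acid shortage. Of 15 genes of that response 0 rose or fell in the paired limma fit, with a median of 0.0058. The asparagine synthetase ASNS stood at 0.36 (SE 0.091, adjusted p = 0.127 in the paired limma fit), the neutral amino acid transporter SLC1A4 at -0.28 (SE 0.086) and the transcription factor CEBPB at 0.24 (SE 0.090). Of the 30 other glutathione genes listed, 28 were measured and 0 rose or fell in the paired limma fit. Their median was -0.023. GGCT, which breaks down gamma-glutamyl peptides, was 1.36-fold lower (-0.44, SE 0.098, adjusted p = 0.0985 in the paired limma fit), with 8.07, 8.07 and 7.75 with X5050 and 8.35, 8.50 and 8.36 with DMSO. The glutathione transferase GSTP1 was 1.29-fold lower (-0.37, SE 0.094) and the glutaredoxin GLRX 1.28-fold lower (-0.35, SE 0.096), and neither passed. The treatments did not overlap for GGCT and GSTP1, and they did for GLRX.

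**Figure D2:**
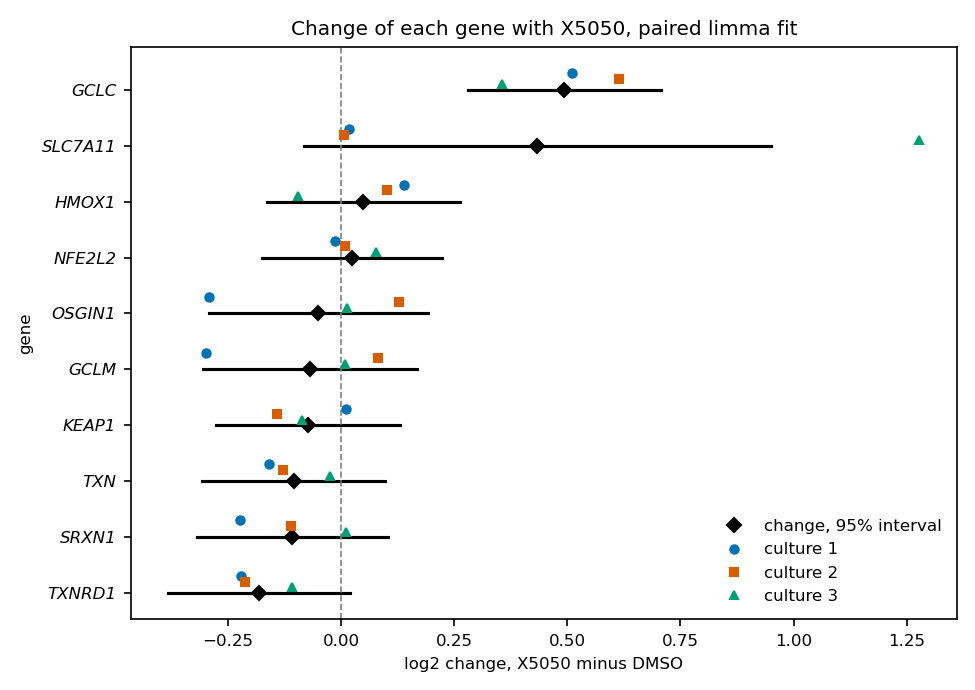
Log2 change (X5050 minus DMSO) of the 10 genes, ordered by size. Black diamonds and lines give the change and 95% interval of the paired limma fit, and coloured symbols above them give the difference within each culture. The GCLC interval alone lies to one side of 0, and SLC7A11 shows culture 3 at 1.28 with the other cultures near 0.

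TXNRD1, TXN and SRXN1 belong to the thioredoxin system, which keeps protein cysteines reduced. TXNRD1, the selenoprotein reductase that recharges thioredoxin with NADPH, had signals of 8.96, 8.64 and 8.55 with X5050 and of 9.18, 8.86 and 8.65 with DMSO. X5050 was lower within each culture, by -0.22, -0.21 and -0.11, although the ranges overlapped across cultures. The change was -0.18 (SE 0.088, 95% interval -0.38 to 0.021, adjusted p = 0.400 in the paired limma fit). The upper end of this interval is a 1.01-fold higher level.

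TXN, thioredoxin itself, stood at 10.28, 10.03 and 10.16 with X5050 and at 10.44, 10.16 and 10.19 with DMSO. X5050 was lower in each culture, by at most -0.16, and the change was -0.10 (SE 0.088, 95% interval -0.31 to 0.098, adjusted p = 0.674 in the paired limma fit). SRXN1, the sulfiredoxin that repairs overoxidised peroxiredoxins, had signals of 7.20, 6.76 and 7.01 with X5050 and of 7.43, 6.87 and 6.99 with DMSO. It was lower with X5050 in cultures 1 and 2 and 0.011 higher in culture 3, a change of -0.11 (SE 0.092, 95% interval -0.32 to 0.10, adjusted p = 0.679 in the paired limma fit). Of the 10 genes, 2 were higher with X5050 in all 3 cultures (GCLC and SLC7A11) and 2 were lower in all 3 (TXNRD1 and TXN), beside 35.5% of all tested probe sets with 1 direction in all 3.

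TXNRD1 has 2 promoter windows in the RefSeq table, and both hold the element core, with 2 matches in the first (99 and 8 bases before the start) and 1 in the second (102 bases before it). They are shown because TXNRD1 had the most matches of the 8 genes searched. The stretches lie at chr12:104215669-104215788 and chr12:104286922-104287041 on the plus strand, from 110 bases before to 10 bases after each start.
TXNRD1 first start: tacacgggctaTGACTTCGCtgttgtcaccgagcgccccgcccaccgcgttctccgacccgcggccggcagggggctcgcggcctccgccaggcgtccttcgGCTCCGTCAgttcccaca
TXNRD1 second start: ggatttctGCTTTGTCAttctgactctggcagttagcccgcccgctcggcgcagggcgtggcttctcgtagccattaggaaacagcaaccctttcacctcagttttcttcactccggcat
Promoters of 8 of the 10 genes were matched, in 11 windows, and those of HMOX1 and SLC7A11 were not searched. Of these windows 4 held the core, which is 36.4%, beside 13.3% of all 35116 promoter windows. Both TXNRD1 windows are among the 4. The share is not particular to these genes. It was 34.8% for the ATF4 amino acid response (8 of 23 windows) and 60% for metallothionein and metal response genes (3 of 5). For the detoxification enzymes and transporters driven by NRF2 it was 16.7% (4 of 24), and over all lists together 18.6%. The genes with the core (KEAP1, GCLM and TXNRD1) had changes of -0.072, -0.069 and -0.18.

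Of 20 other genes of the thioredoxin system and the peroxiredoxins, 18 were measured, 1 fell and 0 rose in the paired limma fit, with a median of -0.091. The gene that fell was TXNIP, which binds and blocks thioredoxin and responds to glucose. Its signals were 9.71, 9.89 and 10.15 with X5050 and 10.18, 10.85 and 10.96 with DMSO, with no overlap. It was 1.67-fold lower (-0.74, SE 0.11, adjusted p = 0.0429 in the paired limma fit, and 0.368 without the block). SESN3, a sestrin, was 1.45-fold higher (0.54, SE 0.10, adjusted p = 0.0707 in the paired limma fit), and the methionine sulfoxide reductase MSRA 1.32-fold lower (-0.40, SE 0.093, adjusted p = 0.108 in that fit). The adjusted p of TXNIP in the paired limma fit was 0.0732 without culture 2 and 0.255 without culture 3, at 1.56-fold and 1.64-fold lower.

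OSGIN1, a growth-inhibiting protein induced by oxidised lipids, stood at 6.27, 6.35 and 6.36 with X5050 and at 6.56, 6.22 and 6.35 with DMSO. The X5050 values lay inside the DMSO range. The change was -0.050 (SE 0.11, 95% interval -0.29 to 0.19, adjusted p = 0.892 in the paired limma fit), and it stood at 0.071 without culture 1.

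Outside the 10 genes, enzymes that NRF2 is known to drive lay on both sides of 0. Of 24 detoxification enzymes and transporters listed, 20 were measured, 0 rose or fell in the paired limma fit, and 12 were above and 8 below 0, with a median of 0.036. Some of the 20 were dim, and the direction of a dim gene says little. ALDH1A1 and AKR1B10, for example, had DMSO means of 3.46 and 3.90, while the lower quartiles of the arrays were 4.05 to 4.21. NQO1, the quinone reductase and standard NRF2 target, had signals of 8.08, 6.70 and 6.46 with X5050 and of 8.86, 7.71 and 6.87 with DMSO. It was lower with X5050 within each culture, by -0.78, -1.01 and -0.41, although the ranges overlapped across cultures. That is 1.67-fold over the 3 (-0.74, SE 0.12, adjusted p = 0.0523 in the paired limma fit, and 0.778 without the block). The aldehyde dehydrogenase ALDH3A2 and the prostaglandin reductase PTGR1 stood at 0.25 each (SE 0.087 and 0.090). Of 11 genes of NADPH supply 10 were measured, 1 fell and 0 rose in the paired limma fit, with a median of -0.044. The gene that fell was ME1, the cytosolic malic enzyme and a target of NRF2 and of lipid regulators, with 7.47, 6.32 and 5.75 with X5050 and 8.76, 7.34 and 6.24 with DMSO. It was lower in each culture by -1.29, -1.02 and -0.49, or 1.91-fold (-0.94, SE 0.14, adjusted p = 0.0444 in the paired limma fit, and 0.748 without the block). The adjusted p in the paired limma fit was 0.0707 without culture 2 and 0.0689 without culture 3, while ME1 stood at 1.86-fold and 2.23-fold lower in these fits. The pentose phosphate enzymes PGLS and TKT stood at 0.21 (SE 0.093) and -0.15 (SE 0.094).

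Genes of neighbouring stress responses were looked at as well. Of 6 genes that remove superoxide and peroxide, all measured, 0 rose or fell in the paired limma fit and the median was -0.014. PARK7 (-0.11), the copper chaperone CCS (-0.067) and the mitochondrial dismutase SOD2 (0.069) had the smallest p. Of 18 heat shock genes, which respond to misfolded and thiol-damaged proteins, 15 were measured and 0 rose or fell in that limma fit, with a median of -0.0097. The mitochondrial co-chaperonin HSPE1 was 1.40-fold lower (-0.49, SE 0.11, adjusted p = 0.102 in the paired limma fit), while DNAJB4 stood at 0.29 (SE 0.11) and HSPH1 at 0.24 (SE 0.11). Of 11 metallothionein and metal response genes 10 were measured and 0 rose or fell in the paired limma fit, with all values between -0.17 and 0.11. MT1F stood at -0.17, MT1X at -0.14 and the zinc exporter SLC30A1 at 0.11. Over all 10 lists 144 genes were measured, of which 72 were above and 72 below 0, 0 rose and 2 fell, and the median was 0.00027, beside 0.190% of all tested probe sets that rose and 0.308% that fell.

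**Figure D3:**
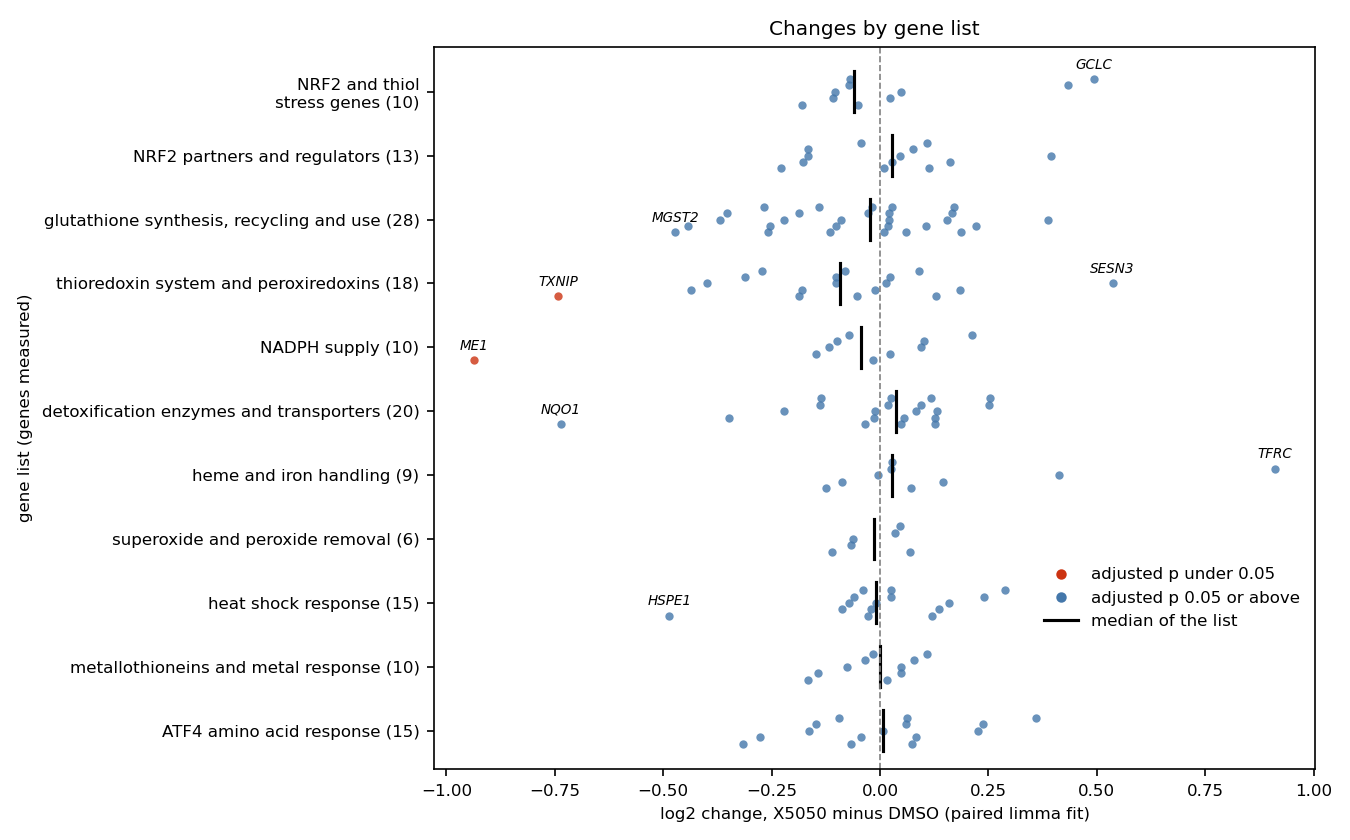
Log2 change (X5050 minus DMSO, paired limma fit) of every measured gene, by list, with 1 point per gene, a black line at each list's median and names for genes beyond 0.45 in either direction. Red points passed an adjusted p under 0.05. Only TXNIP and ME1 are red, both on the lower side, and the medians lie between -0.091 and 0.036.

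Of the 10 genes 2 differed between the cultures. Culture 1 was the highest in both treatments for 7 of the 10 (NFE2L2, GCLM, GCLC, TXNRD1, SRXN1, SLC7A11 and TXN), beside 16.6% of all tested probe sets. The culture term of the paired limma fit was tested after the values had been seen. It passed an adjusted p under 0.05 for GCLM (0.0154) and SLC7A11 (0.0345), beside 2.93% of all tested probe sets, and for 9 of the 144 list genes. NQO1 (adjusted p = 0.00230 for culture in limma) and ME1 (0.00252) were among the 9. The SD over the 3 DMSO arrays was 1.15 for SLC7A11 and 0.59 for GCLM, which placed them at the 99.8 and 98.4 percentile of all tested probe sets.

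The mean signals of the mesenchymal, astroglial and endothelial marker lists were also highest in culture 1, but not every astroglial or endothelial marker was. The mean log2 signal of the 12 mesenchymal markers was 7.83, 6.69 and 6.95 with X5050 and 8.26, 7.07 and 7.00 with DMSO, so culture 1 was the highest in both treatments. Their summed linear signal ran from 1862 to 4755 with X5050 and from 1992 to 7311 with DMSO, and 9 of the 12 were lower with X5050, 1 of which fell in the paired limma fit. No array value is a true 0, so no marker could be called absent. The 7 astroglial markers had means of 7.69, 7.13 and 7.37 with X5050 and of 7.54, 7.19 and 7.48 with DMSO. Culture 1 was again the highest mean in both. Among the single markers only S100B and GJA1 had culture 1 highest in both treatments. AQP4 was highest in culture 3 in both, and with DMSO ALDH1L1 and SLC1A2 were lowest in culture 1. One of the 7, the gap junction gene GJA1, fell in the paired limma fit (-0.61, adjusted p = 0.0444), as did 1 of the 13 neural stem cell markers, LIX1 (-1.38, adjusted p = 0.0177). The mesenchymal marker that fell was LUM. Of all tested probe sets 0.308% fell in that fit. Without the block the adjusted p in limma was 0.667 for GJA1, 0.172 for LIX1 and 0.629 for LUM. The mean of the 4 endothelial markers was also highest in culture 1. It was 5.38, 5.02 and 4.98 with X5050 and 5.57, 5.00 and 4.91 with DMSO. KDR and PECAM1 had culture 1 highest in both treatments. CDH5 (5.20, 5.23 and 5.23) and VWF (4.38, 4.54 and 4.49) had culture 1 lowest with X5050. By mean log2 signal, culture 1 was not the highest in both for the neural stem cell and the neuron markers. By summed linear signal the neural stem cell markers were highest in culture 1 in both treatments. The sums were 16703, 16019 and 16349 with X5050 and 17322, 16460 and 16791 with DMSO. The part of other cell types in the values of SLC7A11, GCLM, NQO1 and ME1 was not tested.

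**Figure D4:**
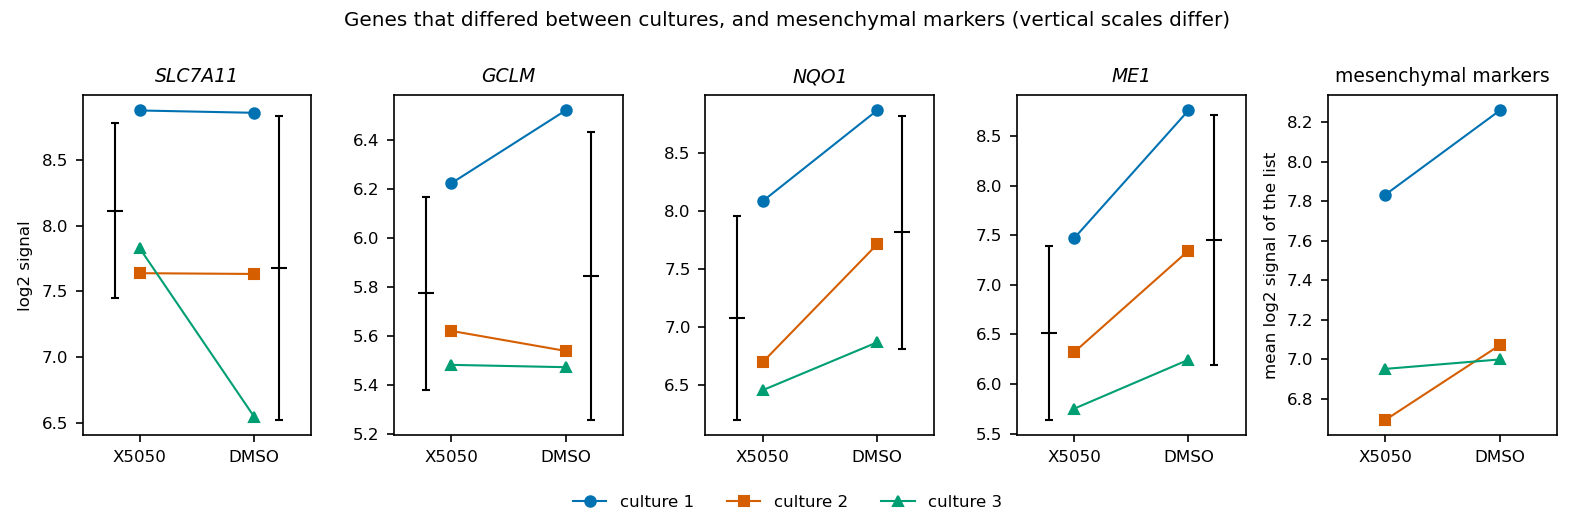
Log2 signal of SLC7A11, GCLM, NQO1 and ME1, and the mean log2 signal of the 12 mesenchymal markers, in the 6 arrays, with X5050 on the left of each panel and DMSO on the right. A line joins the arrays of a culture, black bars in the gene panels give the mean and SD over 3 arrays, and the vertical scales differ. Culture 1 is the highest in every panel.

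GCLC had the smallest p of the 10 genes, so the probe sets of other genes most like it over the 6 arrays were looked up by Pearson correlation. They were those of FUT6 (r = 0.998), CLDN16 (r = 0.991) and OXT (r = 0.986), given as a description over 6 arrays that share cultures. Their changes were 0.20, 0.11 and 0.25, against 0.49 for GCLC, and these differences in size were not tested. Like GCLC, none passed in the paired limma fit (adjusted p = 0.350, 0.650 and 0.254). CLDN16 was dim, with means of 3.68 with X5050 and 3.57 with DMSO, while the lower quartiles of the arrays were 4.05 to 4.21. The highest r among so many probe sets over 6 arrays is large by selection.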

How the data were processed

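RNA was labelled for Affymetrix whole-transcript arrays from 100 ng per sample, with 1 array for each of 6 samples, per the labels' protocols. The authors deposited RMA values on the log2 scale, 1 per probe set and array. RMA and Partek are named by the submitters' processing notes, while their versions, their settings and the build behind the array annotation are not given. Of 33297 probe sets, 19460 have 1 gene symbol in the platform annotation and were tested, 1754 have several and 12083 are unnamed here. Promoters came from RefSeq (GRCh38.p14).

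The paired test of X5050 against DMSO used limma 3.58.1 in R 4.3.3 (lmFit, eBayes, two-sided), with treatment and the replicate number as terms and Benjamini-Hochberg adjustment over 19460 probe sets. As the check of pairing, arrays with 1 number in common shared their deviations from the mean of the treatment (r = 0.365, 0.297 and 0.255, against -0.236 to -0.0520 for different numbers), and the design text gives 3 independent cultures. The numbers were therefore used as pairs. The block leaves 2 residual degrees of freedom.

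The members, the 10 lists and the markers were chosen with earlier results of these data known. Named genes are the members, NQO1 and the 3 smallest p of each list. Of 160 listed genes 144 were measured. The fit was also run on simulated data, with changes larger than that of any member. That run does not show how well changes of the members' size would be found.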

Additional observations from a re-analysis of the deposited data

How the results depend on the processing

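No setting made a member fall past the threshold, and 1 rose (GCLC) with the trended, robust variance prior alone. Without the replicate block, limma called 0 probe sets higher and 0 lower, against 37 and 60 with it (875 and 949 at p under 0.05 without adjustment), and 0 of the list genes fell. With all probe sets of the table in the fit it also called 0, 0 and 0. A further quantile normalization left 18 higher and 33 lower, with 0 list genes past the threshold. Without dim probe sets 66 were higher, and 1 list gene rose (TFRC), as 1 did with the mean of a symbol's probe sets. The trended, robust prior gave 118 and 147, with 2 list genes that rose and 5 that fell. NQO1 passed on the lower side with centred arrays (adjusted p = 0.0473 in limma), without dim probe sets (0.0460), with the mean of probe sets (0.0441), with the trended prior (0.0269) and without culture 1 (0.0306). It did not pass in the main fit, without the block (0.778 in limma), with all probe sets of the table or after the further quantile normalization.

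With 1 culture left out the paired fit called from 0 (culture 3 out) to 113 (culture 1 out) probe sets higher and from 0 to 233 lower, and from 0 to 1 list genes rose and from 0 to 5 fell. Among the genes named, the changes that crossed 0 were those of NFE2L2 (-0.0027 to 0.043), GCLM (-0.14 to 0.046), OSGIN1 (-0.14 to 0.071), SOD2 (-0.0027 to 0.12), MT1X (-0.30 to 0.072) and SLC30A1 (-0.050 to 0.21). The median of the members ranged from -0.074 to 0.023. List medians ranged from -0.051 to 0.048 for NRF2 partners, from -0.13 to -0.026 for glutathione, from -0.12 to 0.051 for NADPH supply, from -0.028 to 0.017 for heat shock, from 0.011 to 0.11 for heme and iron, from -0.048 to 0.077 for superoxide removal and from -0.070 to 0.042 for metallothioneins. The cause of these shifts was not tested. The SLC7A11 change ranged from 0.012 to 0.65 and that of GCLC from 0.43 to 0.56.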
